A study of Sus scrofa with 12 samples.

Results

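The genes described here encode enzymes that attach ubiquitin to proteins and enzymes that take it off again, and they were followed in pig skeletal muscle over the first weeks of life. They were chosen by symbol: every gene of the array's probe gene table whose symbol begins with UBE2, UBE3, USP, CUL, FBXO or FBXW was included, apart from FBXO32. This gave 61 of the 6765 genes with a symbol of their own, namely 24 UBE2, 2 UBE3, 16 USP, 3 CUL, 12 FBXO and 4 FBXW genes. The muscle was taken from pigs (Sus scrofa) within 24 hours of birth, called day 0, and on days 7, 14 and 21, with 3 biological replicates per age and 12 Affymetrix arrays in all. The breed, the sex, the muscle sampled and whether any animals were pooled or were littermates were not given in the sources used here. Each transcript is read on the array by a set of short probes, called a probe set, and its brightness is given as a signal in linear intensity units. A gene with several probe sets was represented by the one with the highest mean log2 signal.

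Ubiquitin is a small protein that is linked to other proteins in a relay. An activating enzyme (E1) passes it to a conjugating enzyme (E2, the UBE2 genes), and a ligase (E3) brings the loaded E2 to the protein to be marked. Many ligases are built on a cullin scaffold (the CUL genes) that is itself switched on by the ubiquitin-like protein NEDD8 and that carries exchangeable substrate receptors such as F-box proteins (the FBXO and FBXW genes), while ubiquitin-specific proteases (the USP genes) remove the mark. Chains of ubiquitin send proteins to the proteasome or alter their activity, and in muscle this system turns over sarcomere proteins and signalling proteins as fibres grow and mature.

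All 12 arrays had the same trimmed mean signal, between 500.12 and 500.146, and their median signal lay between 146 and 173. The median was 146.2 to 161.4 on the day 0 arrays and 161.4 to 172.6 on the later ones. All 15 measured genes of a skeletal muscle list were above the limit for dim probe sets, and between day 0 and day 21, 7 of them rose and 0 fell. Among lists for other cells and states, 6 of 14 tested cell cycle genes rose between these days, as did 8 of 13 interferon-induced, 2 of 7 macrophage, 3 of 9 endothelial, 2 of 4 erythroid and 1 of 2 lymphocyte genes, while 1 endothelial and 1 erythroid gene fell and 0 of 4 adipocyte and 0 of 5 fibroblast genes passed. Over all genes tested, 7.36% rose and 7.1% fell between these days, and the shorter lists rest on few genes. At day 0 the mean log2 signal of the lymphocyte genes was 5.69 to 6.13, under the limit for dim probe sets (a signal of 90.3). That of the interferon-induced genes was 6.26 on the first day 0 array, also under it, and 7.17 and 7.35 on the others. Genes dim at day 0 can pass the filter through later, brighter arrays, so the size of such rises rests on a dim baseline. Fewer cells of a type and less RNA per cell cannot be told apart in such whole-tissue samples. The day 0 arrays also differed from the later arrays in measures of the assay. The hybridization controls, labelled RNAs added just before the array step, averaged 12.2 at day 0 and 12.6 later on the log2 scale. Probe sets for 28S ribosomal RNA averaged 11.5 and 12.5. For each of these measures the day 0 arrays lay below all later ones. The log2 ratio of 3' to 5' signal of the poly-A spikes, RNAs added before labelling, averaged 0.982 at day 0 and 0.51 later. That ratio overlapped between day 0 and the later ages, and its day 0 mean rested largely on replicate 2 of day 0 (1.59). The other day 0 arrays (0.693 and 0.662) lay near the top of the later range, 0.374 to 0.668. The part of these measures in the results was not tested beyond the fits named beside the genes, which took the spike ratio as a covariate or scaled each array on its hybridization controls.

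Few of these genes passed a test of change between birth and day 21, and the median spread of their signals over the arrays was smaller than that of all genes tested. Of the 61 genes, 55 passed the filter on dim probe sets and were tested, and 6 (FBXO2, FBXO6, FBXO34, FBXW9, USP30 and USP36) did not. The highest signal over the 12 arrays was less than 2-fold the lowest for 29 of the 55 genes, or 52.7%, against 35.9% of all 5296 genes tested. The median SD of log2 signal over the 12 arrays was 0.29 for the 55 genes and 0.35 for all genes, but the median mean signal was also higher, 1022 against 622, and the part of brightness in the smaller spread was not tested. The 95% confidence interval of the change from day 0 to day 21 lay within 1 log2 unit of no change for 39 of the 55 genes, or 70.9%, against 57.5% of all genes.

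A change is the mean log2 signal of 1 age minus that of another (n = 3 arrays each), with its SE from limma, and a gene is said to have risen or fallen where its p, adjusted by Benjamini-Hochberg over the 14399 tested probe sets, was under 0.05. Over the 4 ages, 3 of the 55 genes passed limma's F test for any change, UBE2D4, USP10 and CUL4A, which is 5.45% against a background of 11.2% of all genes tested. Between day 0 and day 21, 4 genes passed: UBE2D4 and CUL4A rose, and USP10 and USP5 fell. That is 7.27% of the 55 against a background of 14.5%, with 3.64% rising against 7.36% and 3.64% falling against 7.1%. The 55 changes were spread evenly around 0, with 27 higher (49.1% against 48.5%) and 28 lower (50.9% against 51.5%), a median of -0.013 against -0.018 for all genes and a median size of 0.28 against 0.35. At an unadjusted p under 0.05 there were 16 genes, or 29.1% against 31.8%. The 3 arrays of day 21 did not overlap those of day 0 for 20 of the 55 genes against a background of 32.2%, 13 of them higher at day 21 against 15.2% and 7 lower against 17%. The number of arrays limits the precision: the count for day 21 was 7 without the third replicate of day 0, and that of the F test was 0 without the second replicate of day 0 and 5 without the third of day 0 or the second of day 14. Scaling each array on its hybridization controls moved the median change of all probe sets by -0.38, and on that scale 14 genes were higher and 41 lower at day 21, with 1 called as higher and 12 as lower. The share of all genes called on that scale was not counted, so these counts cannot be read as particular to the group.

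In the comparison of day 7 with day 0, which shares the day 0 arrays, 3 of the 55 genes passed, 5.45% against a background of 11.7%: UBE2D4 and FBXO11 rose (3.64% against 6.51%) and USP10 fell (1.82% against 5.21%). At an unadjusted p under 0.05 there were 13 genes, or 23.6% against 29.4%. The arrays of day 7 did not overlap those of day 0 for 13 genes, 23.6% against 32.3%. The interval of the change lay within 1 log2 unit of no change for 41 genes, or 74.5% against 59.1%. The count rested on single arrays: it was 0 without the first replicate of day 7 and 1 without the second replicate of day 0 or the second or the third of day 7.

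**Figure D1:**
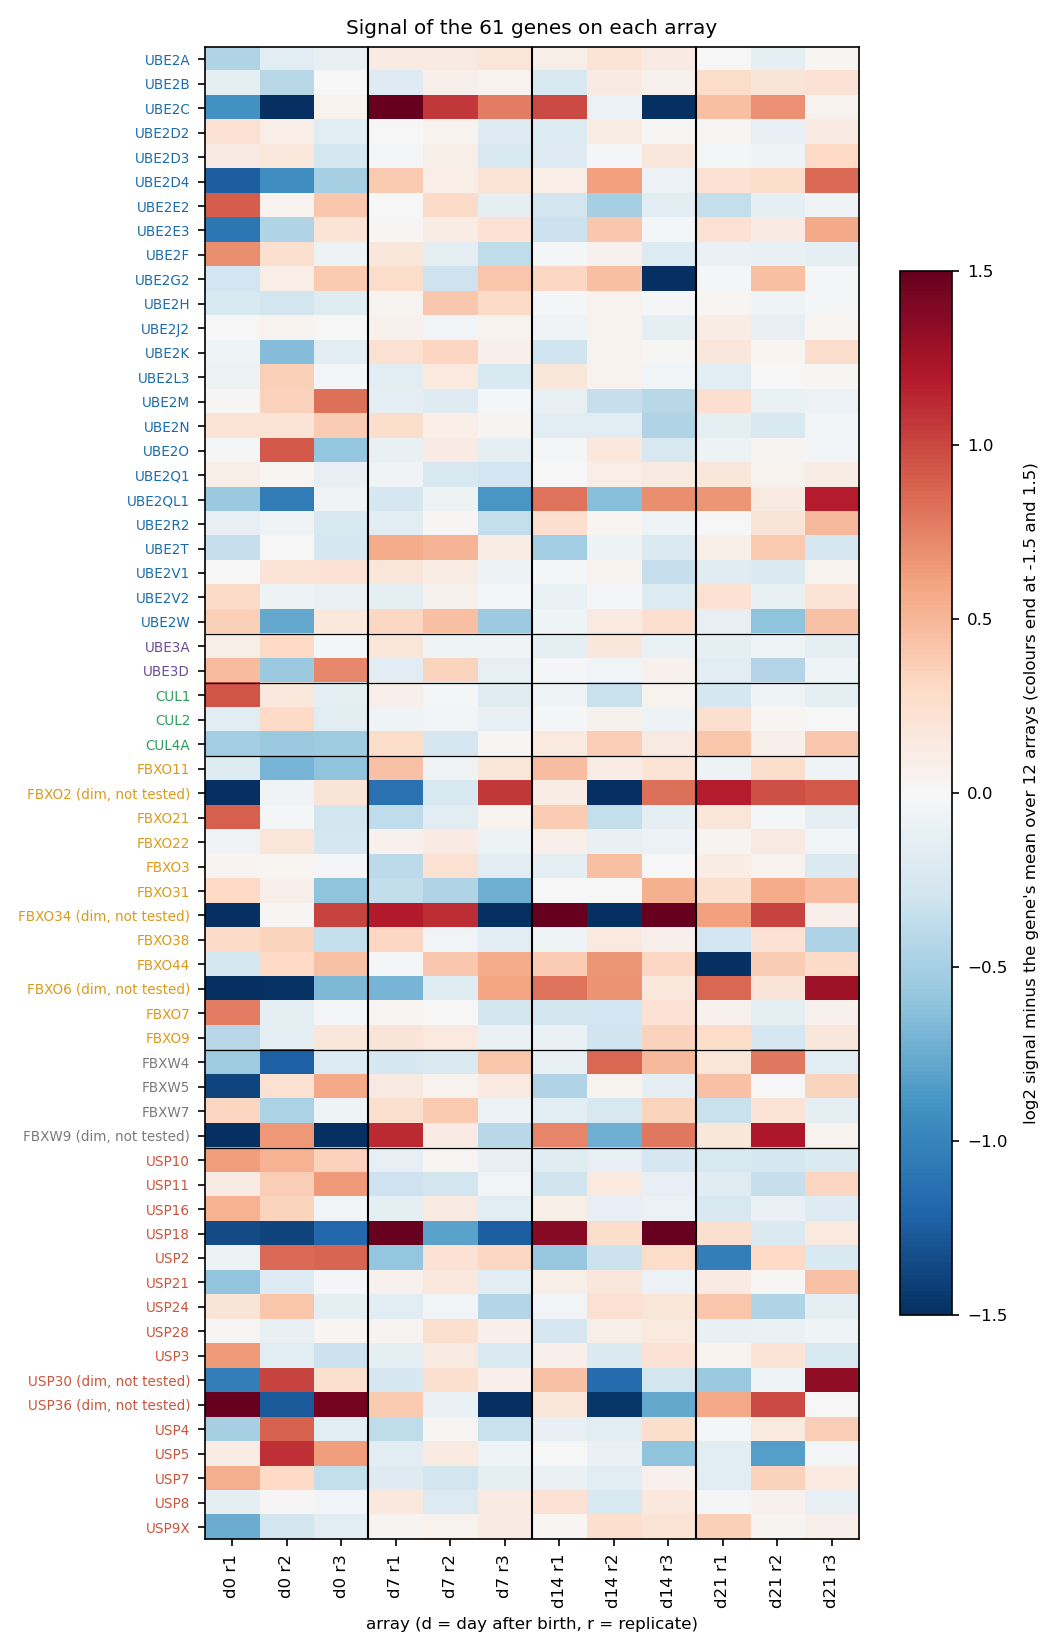
Log2 signal of the 61 genes (rows, ordered by family) on the 12 arrays (columns, by day after birth and replicate), minus each gene's mean over the arrays; red is above and blue below that mean, and colours end at 1.5. The strongest colours lie in the dim genes that were not tested, in UBE2C and USP18 and on 1 array each of FBXO44 and UBE2G2, while UBE2D4 and CUL4A are below their mean on all 3 day 0 arrays and USP10 is above its mean on them.

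**Figure D2:**
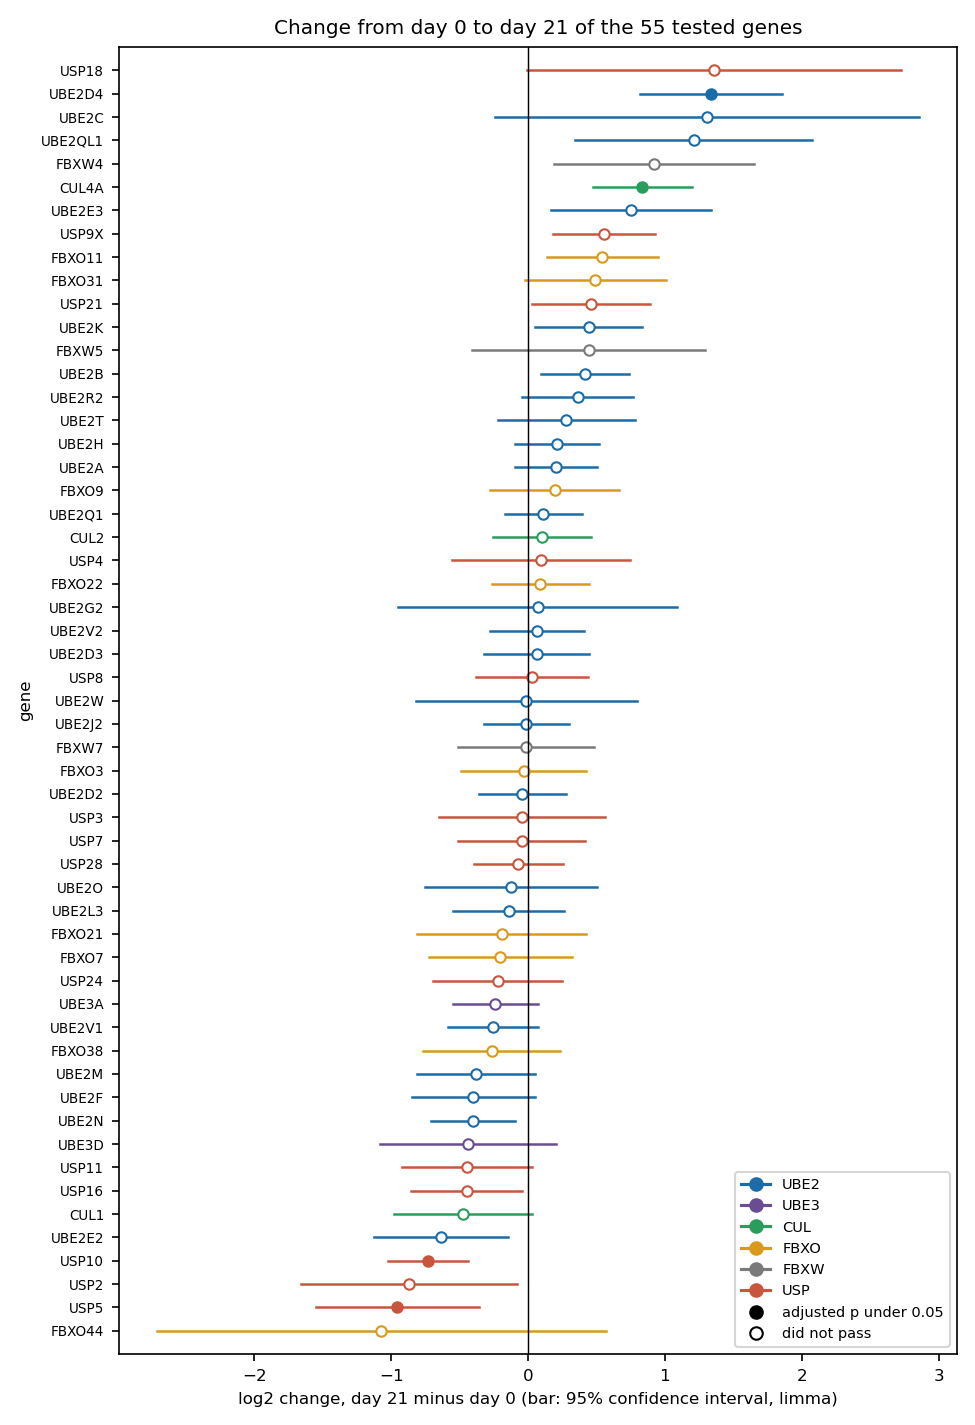
Log2 change from day 0 to day 21 of the 55 tested genes, in order of size, with limma's 95% confidence interval; colours mark the families and filled points an adjusted p under 0.05. The 4 filled points are UBE2D4 and CUL4A to the right and USP10 and USP5 to the left, while several genes with changes as large, such as USP18 and UBE2C, have wide intervals and open points.

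Among the 24 conjugating enzymes, UBE2D4 rose and none of the other 23 passed between day 0 and day 21. Over all genes tested, 14.5% passed between these days and 7.36% rose. UBE2D4 belongs to the UBE2D group, E2s that work with many different ligases. Its signal was 713, 880.4 and 1192 on the 3 day 0 arrays, 2197, 1798 and 1936 at day 7, 1794, 2579.9 and 1574 at day 14 and 1946, 2038 and 3026 at day 21. Every later array was above every day 0 array, and the later ages overlapped one another. The change was 1.33 ± 0.24 to day 21 (2.52-fold, adjusted p = 0.00468) and 1.12 ± 0.24 to day 7 (adjusted p = 0.0145), and both comparisons share the day 0 arrays. The rise to day 21 passed under all 21 alternative settings, with adjusted p from 0.00204 to 0.0266. The rise to day 7 did not pass without the first replicate of day 7 (adjusted p = 0.0602) or with the spike ratio as a covariate (adjusted p = 0.107), within a range of 0.00565 to 0.107 over the alternatives.

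All 3 probe sets of UBE2D4 rose between day 0 and day 21. The others went from 459, 426 and 496 at day 0 to 972, 1033 and 1643 at day 21 and from 158, 132 and 282 to 555, 457 and 579. Their changes were 1.36 ± 0.27 and 1.55 ± 0.27 (adjusted p = 0.00692 and 0.00389), with no overlap between the ages in either. The close relatives UBE2D2 and UBE2D3, which share most of their sequence with UBE2D4, did not pass. UBE2D2 had signals of 6687 to 8845 at day 0 and 6926 to 8284 at day 21 and a change of -0.041 (95% interval -0.36 to 0.28). UBE2D3 had 1302 to 1738 and 1497 to 1921 and a change of 0.063 (-0.32 to 0.45). The intervals of both lay below that of UBE2D4, which ran from 0.81 to 1.85, but the difference between the genes was not tested. Probe sets of near-identical genes can take up each other's RNA, and how far they did so was not tested.

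**Figure D3:**
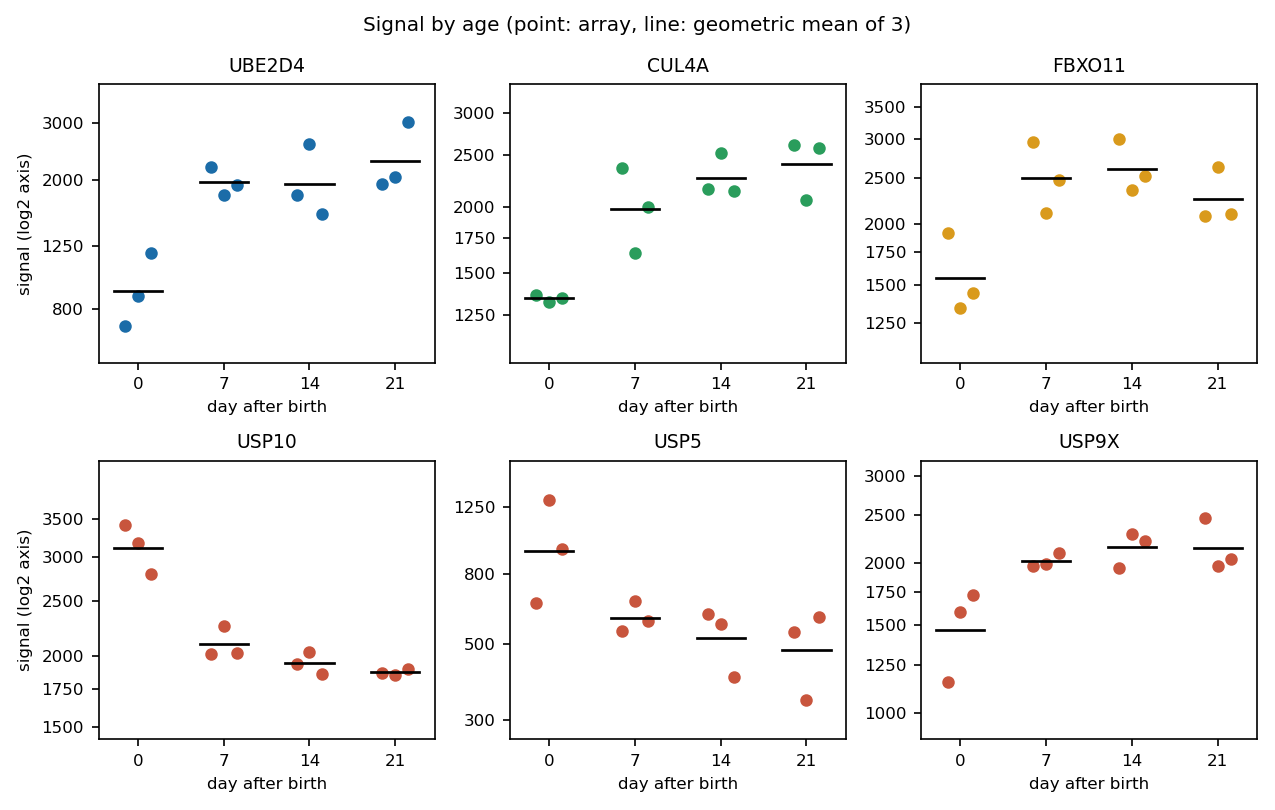
Signal on each array (points, log2 axis) at days 0, 7, 14 and 21 after birth, with the geometric mean of the 3 arrays of an age (lines), for UBE2D4, CUL4A, FBXO11, USP10, USP5 and USP9X. In all of them but USP5 the 9 later arrays lie on one side of the 3 day 0 arrays, whereas in USP5 the first day 0 array (659) lies within the range of day 7 (545 to 667).

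A relative of the UBE2D enzymes, UBE2E3, an E2 with an extended N-terminal tail, had a signal of 3286, 5087 and 8046 at day 0 and 8192, 7579 and 10338 at day 21. The third day 0 array lay within the day 21 range while the first was the lowest of all 12, and the change of 0.75 ± 0.27 did not pass (adjusted p = 0.0897) except without the third replicate of day 0. Its sister UBE2E2 went the other way in its means. UBE2E2 was at 898, 496 and 633 at day 0 and 374, 433 and 462 at day 21, with no overlap, and its change of -0.64 ± 0.23 did not pass either (adjusted p = 0.0849), except without the second replicate of day 0, with the spike ratio as a covariate and on the hybridization control scale.

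UBE2N builds ubiquitin chains linked through lysine 63, which serve signalling rather than degradation, and it does so in a pair with UBE2V1 or UBE2V2, E2-like proteins that lack the catalytic cysteine. The signal of UBE2N was 3111, 3111 and 3511 at day 0, 3248, 2884 and 2778 at day 7, 2395, 2415 and 1977 at day 14 and 2428, 2311 and 2615 at day 21. The day 14 and day 21 arrays all lay below the day 0 and day 7 arrays. The change to day 21 of -0.40 ± 0.14 did not pass (adjusted p = 0.0842), but it did when arrays were scaled on the hybridization controls (-0.78, adjusted p = 0.00493), the only alternative of 21 in which it passed. UBE2V1 had a change of -0.26 (-0.59 to 0.069) on its brightest probe set, which passed as lower on the hybridization control scale (-0.64, adjusted p = 0.00848), while a dimmer probe set of the gene fell. That dimmer one read 1165, 911 and 1536 at day 0 and 605, 635 and 628 at day 21, a change of -0.92 ± 0.20 (adjusted p = 0.0125). It passed in all 20 alternatives that could be run on it, with adjusted p from 0.00217 to 0.0457. The probe sets of UBE2V1 thus differed in size of change, and which transcripts each one reads was not tested. UBE2V2 stayed between 2344 to 3066 at day 0 and 2314 to 2927 at day 21, with a change of 0.065 (-0.28 to 0.41).

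UBE2B is an E2 that serves N-end rule ligases such as UBR1 and UBR2, which recognise a protein's first residue, and UBE2A is its near-identical copy. UBE2B read 7422, 6158 and 8246 at day 0 and 9915, 9366 and 9587 at day 21. The day 21 arrays were the 3 highest of the 12, and the change of 0.41 ± 0.15 did not pass (adjusted p = 0.0898; 0.0447 without the third replicate of day 0, the only alternative in which it passed, within a range of 0.0447 to 0.907). UBE2A read 2079.6, 2542 and 2648 at day 0, 3104, 3129.6 and 3226 at day 7 and 2834, 2592 and 2924 at day 21. Its day 7 arrays lay above those of day 0 without overlap, with a change of 0.39 ± 0.14 (adjusted p = 0.0977).

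UBE2H, an E2 that helps degrade proteins during red cell maturation, also stood highest at day 7. Its signal was 1464, 1416 and 1512 at day 0, 1767, 2264 and 2102 at day 7 and 1754, 1645 and 1686 at day 21. The change to day 7 of 0.47 ± 0.14 missed the threshold (adjusted p = 0.0525) and passed with the stricter filter and with quantile normalization. UBE2K, which builds chains linked through lysine 48 for degradation, read 1478, 985 and 1389.9 at day 0 and 1743, 1575 and 1849.8 at day 21 and did not overlap between these days, with a change of 0.44 ± 0.18 (adjusted p = 0.134). UBE2R2, a partner of cullin-based SCF ligases, read 454, 476 and 423 and 494, 568 and 694, with a change of 0.36 ± 0.19 (adjusted p = 0.231). For UBE2R2 the mean change had the opposite sign, -0.016, when arrays were scaled on the hybridization controls.

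The remaining conjugating enzymes did not pass in either comparison with day 0 on their brightest probe set. UBE2J2, which sits in the endoplasmic reticulum membrane, was the steadiest of the 55 genes by the ratio of highest to lowest signal, with a lowest and highest signal of 972 and 1153 over the 12 arrays (1.19-fold). UBE2Q1 varied 1.38-fold, and its change to day 21 was 0.11 (-0.17 to 0.39). UBE2L3, an E2 for HECT and RBR ligases, changed by -0.14 (-0.55 to 0.26), and UBE2O, a large enzyme that acts as E2 and E3 at once, by -0.13 (-0.76 to 0.50). UBE2G2, an E2 for degradation at the endoplasmic reticulum, and UBE2W, which marks protein N termini, had wide intervals for the change to day 21, -0.95 to 1.09 and -0.82 to 0.80. UBE2G2 was at 246, 273 and 59.1 at day 14, where the third array was the dimmest of the 12. UBE2QL1, a gene related to UBE2Q1, read 209.8, 149 and 297 at day 0, 259, 291 and 169 at day 7, 543, 198 and 500.1 at day 14 and 488, 338 and 697 at day 21. Its day 21 arrays were all above those of day 0, and the change of 1.21 ± 0.40 did not pass (adjusted p = 0.0685) except without the third replicate of day 0 or the second of day 14.

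The NEDD8 branch and the cullins came next in the relay. UBE2M and UBE2F are the E2s that carry NEDD8 to cullins. UBE2M read 1470.4, 1842 and 2561 at day 0, 1304, 1269.8 and 1415 at day 7, 1334, 1141 and 1087 at day 14 and 1719, 1351 and 1362 at day 21, and UBE2F went from 1656, 1207 and 967 at day 0 to 955, 949.6 and 926 at day 21. UBE2M did not overlap between days 0 and 7 and UBE2F did not overlap between days 0 and 21, in both cases with day 0 higher. Neither passed, with changes to day 21 of -0.38 ± 0.20 (adjusted p = 0.242) and -0.40 ± 0.21 (adjusted p = 0.233), and both passed as lower on the hybridization control scale.

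CUL4A, the scaffold of ligases that use DDB1 to hold their substrate receptors, rose. Its signal was 1366, 1325 and 1349.9 at day 0, 2369.8, 1636 and 1996 at day 7, 2162, 2523 and 2145 at day 14 and 2613, 2059.8 and 2579 at day 21. The day 0 arrays lay close together, between 1325 and 1366, and below all 9 later arrays. The change to day 21 was 0.84 ± 0.17 (1.78-fold, adjusted p = 0.00781), and that to day 7 was 0.55 ± 0.17 and missed the threshold (adjusted p = 0.0558). The rise to day 21 passed in every alternative run but the scaling on hybridization controls, where it was 0.46 (adjusted p = 0.0809), within a range of adjusted p from 0.00595 to 0.0809.

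The partners of CUL4A were taken from a list of other genes of the pathway. DDB1, the adaptor that links CUL4A to its receptors, fell, from 1273, 2552 and 2040.2 at day 0 to 1071, 1185 and 852 at day 21, a change of -0.87 ± 0.23 (adjusted p = 0.0292). DDB2, a receptor of this ligase that recognises damaged DNA, rose, from 57.8, 166 and 229.9 to 508, 252 and 486, a change of 1.60 ± 0.42 (adjusted p = 0.0260). Neither gene overlapped between day 0 and day 21, so the scaffold and 1 receptor were higher at day 21 while the adaptor was lower. The call of DDB1 was lost without the second (adjusted p = 0.1004) or the third (0.0595) replicate of day 0, without the first (0.0716) or the third (0.117) of day 21 and with the spike ratio as a covariate (0.137). That of DDB2 was lost without the first replicate of day 0 (adjusted p = 0.0514) and without the first (0.0982) or the third (0.0949) of day 21, and the ranges were 0.00516 to 0.137 for DDB1 and 0.00698 to 0.0982 for DDB2.

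CUL1, the scaffold of the SCF ligases that use F-box proteins, and CUL2, the scaffold of the VHL ligase, did not pass. CUL1 read 2952, 1714 and 1389 at day 0 and 1275, 1464 and 1393 at day 21, and only the first day 0 array stood clearly above the rest. Its change was -0.48 ± 0.23 (adjusted p = 0.205), and it passed as lower only on the hybridization control scale (-0.86, adjusted p = 0.0423). CUL2 had a lowest and highest signal of 936 and 1296 and a change of 0.10 (-0.26 to 0.46), whose sign turned on that scale (-0.28).

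Of the F-box genes, 12 were tested and 1 passed in a comparison with day 0, FBXO11 at day 7, which is 8.33% against 11.7% of all genes at day 7, while 0% passed at day 21 against 14.5%. FBXO11 is an F-box protein that directs the transcription factor BCL6 to degradation. Its signal was 1917, 1343 and 1440.4 at day 0, 2969, 2108 and 2474 at day 7, 3001, 2356 and 2517 at day 14 and 2078, 2628 and 2098 at day 21. All 9 later arrays were above those of day 0. The rise to day 7 was 0.69 ± 0.19 (adjusted p = 0.0393), and the change to day 21 of 0.54 ± 0.19 did not pass (adjusted p = 0.0802). The rise at day 7 was lost in 12 of 21 alternatives, with adjusted p from 0.0228 to 0.319. It was lost without the second (adjusted p = 0.119) or the third (0.0705) replicate of day 0, without the first (0.149), second (0.0561) or the third (0.0966) of day 7, without the third of day 14 (0.0524) and without the first (0.0511) or the third (0.0516) of day 21. With the mean of the 2 tested probe sets of FBXO11 the change to day 7 was only 0.35 (adjusted p = 0.161). The call at day 7 thus rests on the brightest probe set and was not borne out over both.

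FBXW7, the receptor that directs cyclin E and MYC to degradation, was read by 5 tested probe sets that did not move together. The brightest had signals of 2384 to 4153 at day 0 and 2635 to 3841 at day 21 and a change of -0.015 (-0.51 to 0.48). Of the others, 1 probe set fell, from 918, 641 and 757 at day 0 to 442, 526 and 462 at day 21, with no overlap and a change of -0.68 ± 0.18 (adjusted p = 0.0278). That fall was lost without the first replicate of day 0 (adjusted p = 0.0762), without the first (0.0952) or the third (0.0884) of day 21 and with the replicate number as a block (0.0511), within a range of 0.00769 to 0.0952. The lowest of the 5 changes was -0.83 and the highest 0.16. FBXW4 was higher at day 21 on both of its probe sets. Its brightest read 236, 146 and 295 at day 0 and 386, 591 and 302 at day 21, without overlap, and its change of 0.92 ± 0.34 did not pass (adjusted p = 0.0967). The dimmer probe set rose by 1.55 ± 0.46 (adjusted p = 0.0450), although the ages overlapped and the call was lost in 13 of the 19 alternatives run on it (adjusted p from 0.0249 to 0.154). These included leaving out the second (adjusted p = 0.092) or the third (0.118) replicate of day 0, any 1 replicate of day 7 (0.0571 to 0.0618), the third of day 14 (0.0585), or the first (0.154) or second (0.132) of day 21. FBXW5, a receptor also used by CUL4A ligases, changed by 0.44 (-0.41 to 1.29).

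The other F-box genes showed no change that passed. FBXO31, a receptor that acts on cyclin D1, was lowest at day 7. It read 1259, 1081 and 669.6 at day 0, 792, 746 and 614 at day 7, 1019.7, 1018 and 1483 at day 14 and 1202, 1500.2 and 1402 at day 21. The day 14 and day 21 arrays all lay above those of day 7, and the change from day 7 to day 21 of 0.93 ± 0.24 did not pass (adjusted p = 0.436). FBXO7, which is linked to inherited parkinsonism, FBXO9 and FBXO22 changed by -0.20 (-0.72 to 0.32), 0.19 (-0.28 to 0.66) and 0.088 (-0.27 to 0.44) to day 21. FBXO3, FBXO21 and FBXO38 changed by -0.033 (-0.49 to 0.42), -0.19 (-0.81 to 0.42) and -0.27 (-0.77 to 0.24). FBXO44 had the widest interval of the 55 genes for this change, -2.71 to 0.57, and 1 of its 12 arrays was far below the rest. At day 21 FBXO44 read 9.5, 132 and 124, whereas the lowest of the other 11 arrays was 84.4. Among the dim genes, FBXO6 read 23.2, 24 and 42.1 at day 0 and 121, 76.4 and 162 at day 21, and FBXO2 read 10, 44 and 52.3 and 103, 89 and 86.4, both with day 21 above day 0 on all arrays but too dim to be tested.

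The UBE3 genes were lower at day 21 in their means, without passing. UBE3A is a HECT ligase that takes ubiquitin onto itself before passing it on, and its loss in the brain causes Angelman syndrome. It read 4879, 5649 and 4506 at day 0 and 4147, 4386 and 4137 at day 21, without overlap, with a change of -0.24 ± 0.14 (adjusted p = 0.303), and it passed as lower only on the hybridization control scale (adjusted p = 0.0148, within a range of 0.0148 to 0.651). UBE3D changed by -0.44 (-1.08 to 0.20).

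Among the 14 tested removal enzymes of the USP family, USP10 and USP5 fell between day 0 and day 21 and none of the other 12 passed. Over all genes tested, 14.5% passed in this comparison and 7.1% fell. USP10 is a protease that stabilises proteins such as p53 and that binds the stress granule protein G3BP1. Its signal was 3405, 3165 and 2795 at day 0, 2020.2, 2260.2 and 2024 at day 7, 1939.9, 2035 and 1861 at day 14 and 1865, 1854 and 1899.9 at day 21. All 9 later arrays lay below all 3 day 0 arrays, and the day 21 arrays also lay below those of day 7. The fall was -0.73 ± 0.14 to day 21 (0.602 times the day 0 level, adjusted p = 0.00555) and -0.57 ± 0.14 to day 7 (adjusted p = 0.0234). The fall to day 21 passed in all 21 alternatives, with adjusted p from 0.00174 to 0.0248. The fall to day 7 was lost in 7 of 21 (adjusted p from 0.00836 to 0.151): without the first (0.0503) or second (0.055) replicate of day 0, without the first (0.0846), second (0.0545) or the third (0.0784) of day 7, with the spike ratio as a covariate and with the mean of its probe sets. A dimmer probe set of USP10 gave nearly the same change to day 21, -0.73 ± 0.29, and did not pass on its own (adjusted p = 0.116).

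USP5 takes apart free ubiquitin chains that are no longer attached to a protein and so returns single ubiquitin to the pool. Its signal was 659, 1308 and 942 at day 0, 545, 667 and 584 at day 7, 611, 569.5 and 402 at day 14 and 540.3, 344 and 597 at day 21. The second day 0 array was the highest of the 12, and the first (659) was the only one near the highest day 21 array (597). The fall of -0.96 ± 0.28 (0.515 times the day 0 level, adjusted p = 0.0399) was lost in 13 of 21 alternatives, with adjusted p from 0.00509 to 0.194. Without the second replicate of day 0 it was -0.71 (adjusted p = 0.137), without the second of day 21 it was -0.72 (0.132), and with the spike ratio as a covariate it was -0.62 (0.194). It was also lost without the third replicate of day 0 (0.0652), any 1 replicate of day 7 (0.0527 to 0.0544), the second of day 14 (0.0508), or the first (0.0741) or the third (0.0545) of day 21, and with the replicate number as a block (0.0644).

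USP9X, a large protease that protects many proteins from degradation, was close to the threshold in the other direction. It read 1151, 1593 and 1723 at day 0, 1978, 1988 and 2097 at day 7, 1958, 2294 and 2217 at day 14 and 2471, 1979 and 2036 at day 21. All 9 later arrays lay above the day 0 arrays, and the change of 0.55 ± 0.17 (adjusted p = 0.0552) passed in 3 of 21 alternatives, with adjusted p from 0.0285 to 0.547. These were the stricter filter, quantile normalization and leaving out the third replicate of day 0. USP2, a protease with a strong daily rhythm in several tissues, had a wide spread within each age. It read 1983, 3792 and 3845 at day 0, 1397, 2432 and 2593 at day 7, 1413, 1677 and 2533 at day 14 and 1020.2, 2586 and 1789 at day 21. The ages overlapped, and the change of -0.87 ± 0.37 (adjusted p = 0.141) passed with the replicate number as a block (adjusted p = 0.0261) and on the hybridization control scale (0.0305), within a range of 0.0261 to 0.436.

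USP16, which removes ubiquitin from histone H2A, and USP21, which also acts on histones, did not overlap between day 0 and day 21 and went in opposite directions in their means. USP16 read 712, 625 and 479 at day 0 and 418, 461 and 434 at day 21, a change of -0.45 ± 0.19 (adjusted p = 0.141). USP21 read 348, 459 and 514 and 568, 531 and 709, a change of 0.46 ± 0.20 (adjusted p = 0.155). USP11 read 501, 599 and 718 at day 0 and 371, 382 and 448 at day 7 without overlap, a change of -0.59 ± 0.22 (adjusted p = 0.115). USP11 and USP16 passed as lower at day 21 on the hybridization control scale, and USP11 did so at day 7 as well.

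The rest of the USP genes lay near no change at day 21 on their brightest probe sets. USP28, a protease that opposes FBXW7, changed by -0.072 (-0.40 to 0.25) and USP8, which acts on receptors in endosomes, by 0.028 (-0.38 to 0.44). USP7, the protease of MDM2 and p53, changed by -0.048 (-0.51 to 0.41), and USP24 by -0.22 (-0.69 to 0.25). USP3, a histone protease, changed by -0.045 (-0.65 to 0.56) and USP4 by 0.093 (-0.56 to 0.74). For the first 2 of these 6 the interval lay within 0.5 log2 units of no change, while for the other 4 it reached further. The other tested probe set of USP4 changed by 0.53 and that of USP7 by 0.21. On the brightest probe set the sign turned in 4 of 21 alternatives for USP4 and in 5 for USP7.

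UBE2C and UBE2T, which act in dividing cells or in DNA repair, and USP18, which belongs to the interferon response, are given beside lists of cell cycle and interferon-induced genes. USP18 and UBE2C had the largest SDs of log2 signal over the 12 arrays among the 55 genes, 1.29 and 1.26, and that of UBE2T was 0.35. UBE2C is the E2 of the anaphase-promoting complex, the ligase that ends mitosis. It read 125, 64.6 and 244 at day 0, 686, 493 and 403 at day 7, 471, 222 and 35.7 at day 14 and 322, 381 and 244 at day 21. All 3 day 7 arrays were above those of day 0, but the change of 2.04 ± 0.72 did not pass (adjusted p = 0.0942), and neither did that of 1.31 ± 0.72 to day 21 (adjusted p = 0.260). UBE2T, the E2 of the Fanconi anaemia DNA repair pathway, read 222, 280.3 and 236 at day 0, 416, 400.2 and 304 at day 7 and 197, 268 and 243 at day 14 on its brightest probe set, whose change to day 7 was 0.59 ± 0.23 (adjusted p = 0.128). A dimmer probe set of UBE2T rose by day 7, from 85.6, 92.1 and 63.2 to 200.3, 193 and 222, a change of 1.37 ± 0.31 (adjusted p = 0.0189). That call was lost without the first (adjusted p = 0.0605), second (0.0576) or the third (0.0684) replicate of day 7 and with the spike ratio as a covariate (0.0733), within a range of 0.0107 to 0.0733. At day 0 this probe set was near the limit for dim probe sets (90.3), with 85.6 and 63.2 under it and 92.1 just above. The size of its rise rests on that dim baseline. Beside these genes, the mean log2 signal of 14 tested cell cycle genes was 6.65, 7.15 and 8.2 at day 0, 9.67, 9.26 and 9.41 at day 7, 8.8, 8.61 and 7.87 at day 14 and 9.09, 8.52 and 8.56 at day 21. Their summed signal ran from 4878 to 7518 at day 0 and from 15213 to 19794 at day 7. By day 7, 10 of the 14 rose, against a background of 6.51% of all genes tested. Of these 10, CCNB1, CCNB2, CENPF and RRM2 had a day 0 mean under the limit for dim probe sets (90.3), as did MCM3 and MCM5, which did not pass. Such dim signals weigh on the day 0 mean log2 values of the list. The part of cell division in the values of UBE2C and UBE2T was not tested.

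USP18 removes the ubiquitin-like protein ISG15 and is itself induced by interferon. It read 174, 169 and 196 at day 0, 1439, 255 and 188 at day 7, 1142, 531 and 2418 at day 14 and 521, 379 and 492 at day 21. The first day 7 array and the first and the third of day 14 were far above the others, and the change to day 21 of 1.36 ± 0.63 did not pass (adjusted p = 0.183), although all 3 day 21 arrays were above all 3 of day 0. ISG15 read 72.7, 141 and 297 at day 0, 2156, 129.9 and 189.8 at day 7, 2754, 727 and 5399 at day 14 and 468, 460.2 and 449.8 at day 21. The same 3 arrays were the highest for ISG15. The mean log2 signal of 13 tested interferon-induced genes, ISG15 among them, was 6.26, 7.17 and 7.35 at day 0, 9.93, 7.71 and 7.56 at day 7, 9.73, 9.11 and 10.6 at day 14 and 9.11, 8.66 and 8.54 at day 21. Their summed signal ran from 1310.1 to 2399 at day 0 and from 5753 to 8294 at day 21, and the part of this response in the values of USP18 was not tested. On the first day 0 array the mean of these genes lay under the limit for dim probe sets (90.3), and such dim signals weigh on it.

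**Figure D4:**
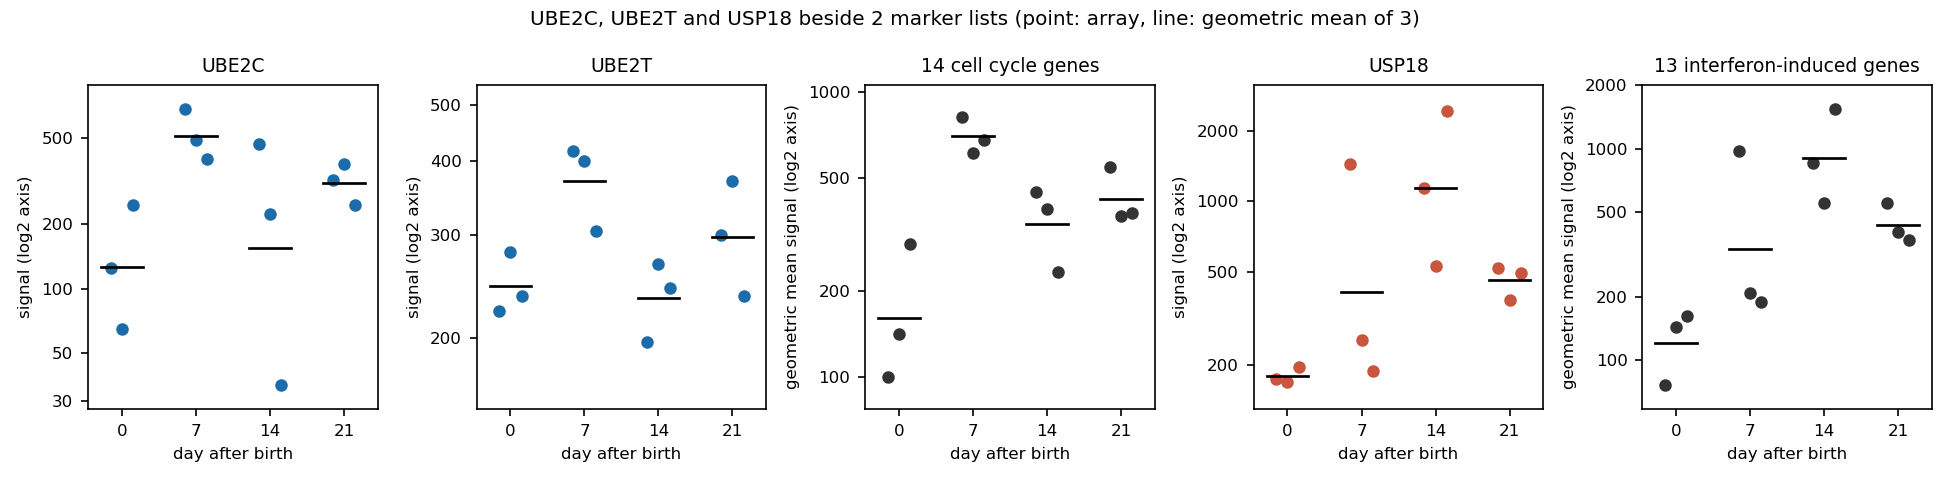
Signal on each array (points, log2 axes) by day after birth, with the geometric mean of an age's 3 arrays (lines), for UBE2C, UBE2T and USP18, and the geometric mean signal of 14 cell cycle genes and 13 interferon-induced genes. UBE2C, UBE2T and the cell cycle genes have their highest age mean at day 7, and the 3 arrays highest for USP18 (1439, 1142 and 2418) are also the 3 highest for the interferon-induced genes.

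Between the later ages no gene of the group passed. Limma called 0 of the 55 genes between days 7 and 14, 14 and 21, and 7 and 21, against a background of 0% in each of the 3 comparisons. At an unadjusted p under 0.05 there were 5 (9.09% against 6.93%), 0 (0% against 2.93%) and 3 genes (5.45% against 7.06%). The 5 between days 7 and 14 were FBXO31 and USP18, higher at day 14 (3.64% against 2.79%), and UBE2C, UBE2N and UBE2T, lower (5.45% against 4.14%), and the smallest adjusted p among them was 0.734. The 3 between days 7 and 21 were FBXO31, UBE2Q1 and UBE2QL1, all higher at day 21 (5.45% against 3.19%, and 0% lower against 3.87%). UBE2N had the smallest SE of the 5, with a change of -0.40 ± 0.14 between days 7 and 14.

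Whether the change of the first week differed from that of the third was tested directly. Limma called 0 of the 55 genes in this comparison against a background of 1.13%, and at an unadjusted p under 0.05 there were 7, or 12.7% against 19.5%. These were FBXO11, UBE2A, UBE2D4, UBE2H and USP18, with the first week's change more positive (9.09% against 9.42%), and UBE2M and USP10, with it more negative (3.64% against 10%). The difference was 0.88 ± 0.34 for UBE2D4 (adjusted p = 0.211), -0.51 ± 0.19 for USP10 (0.197) and 0.90 ± 0.27 for FBXO11 (0.125), so the larger mean change in the first week did not pass as a difference between weeks.

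Where a gene had more than 1 tested probe set, these mostly moved the same way. Of 20 such genes, 15 had changes to day 21 of 1 sign on all their probe sets. The size could still differ, as in UBE2V1 (-0.92 to -0.18), and how often signs match over all genes of the array was not tested. The 5 with mixed signs were FBXO21, FBXW7, UBE2D2, UBE2H and USP7, and in 0 genes were probe sets called in opposite directions. Of the 84 tested probe sets of the group, 9 passed between day 0 and day 21, or 10.7% against a background of 11.5% of the 14399 probe sets: 3 of UBE2D4, 1 each of CUL4A, USP10, USP5, UBE2V1, FBXW4 and FBXW7.

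**Figure D5:**
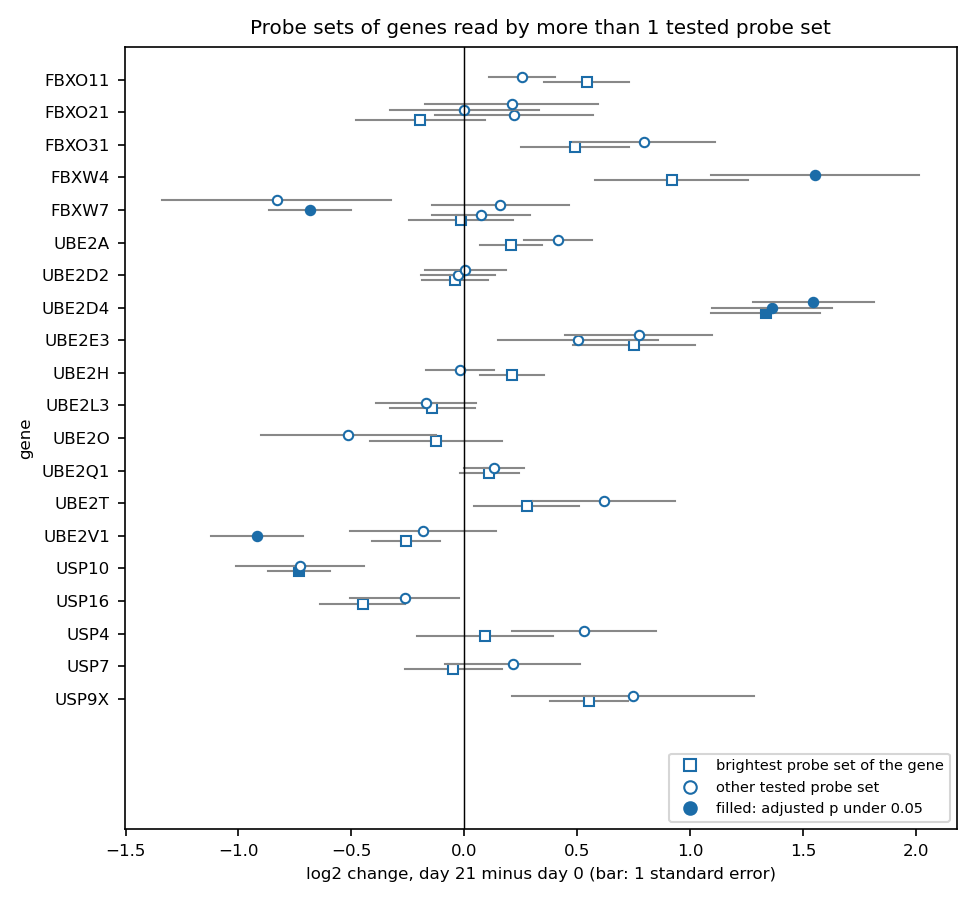
Log2 change from day 0 to day 21 with 1 SE (bars) for every tested probe set of the 20 genes that have more than 1; squares mark the brightest probe set of a gene, circles the others, and filled symbols an adjusted p under 0.05. The 3 probe sets of UBE2D4 lie together between 1.33 and 1.55, while those of FBXW7 run from -0.83 to 0.16.

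The other genes of the pathway came from a list of 178 symbols, of which 83 had a probe set and 78 were tested. Between day 0 and day 21, 7 rose and 5 fell, or 15.4% against 14.5% of all genes, with a median change of 0.037. By day 7, 1 rose and 5 fell, or 7.69% against 11.7%; RNF130 rose and DDB1, FBXL5, CDC23, NSFL1C and VCP fell. All of these day 7 calls but that of NSFL1C were lost when single arrays were left out. The calls were lost in 15 of 21 alternatives for RNF130, 14 each for DDB1 and VCP, 10 for CDC23, 4 for FBXL5 and 1, the spike ratio as a covariate, for NSFL1C. The highest adjusted p over the alternatives was 0.274 for RNF130, 0.372 for DDB1, 0.446 for VCP, 0.242 for CDC23, 0.206 for FBXL5 and 0.101 for NSFL1C. The call of RNF130 was lost without the first replicate of day 0 and without any 1 array of the later ages, and that of VCP without the first or second replicate of day 0 and without any 1 array of the later ages. That of DDB1 was lost without the second or the third replicate of day 0, any 1 of day 7 or day 14 or the first of day 21. That of CDC23 was lost without the first or second replicate of day 0, any 1 of day 7, the third of day 14 or the first or the third of day 21, and that of FBXL5 without the second replicate of day 0 or the first or second of day 7. Of the ubiquitin genes themselves, UBB, which encodes a string of ubiquitin units, rose by 0.42 ± 0.12 (adjusted p = 0.0395), with signals of 25534 to 32698 at day 0 and 35819.8 to 40826 at day 21. This rise was lost in 15 of 21 alternatives (adjusted p from 0.0113 to 0.817), among them leaving out any 1 array (0.052 to 0.135) but the third replicate of day 0 or the second or the third of day 14, and was 0.042 when arrays were scaled on the hybridization controls. RPS27A, a fusion of ubiquitin with a ribosomal protein, had a change of -0.28 ± 0.12 that did not pass (adjusted p = 0.147). None of the 5 tested E1 enzymes and their partners passed, and UBA2, part of the E1 for SUMO, came closest with -0.47 ± 0.15 (adjusted p = 0.0537).

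Among the ubiquitin-like modifiers, UBL4A, which guides tail-anchored membrane proteins, rose by 0.62 ± 0.17 (adjusted p = 0.0340), and URM1, which also serves in tRNA modification, fell, with a change of -0.66 ± 0.20 (adjusted p = 0.0497). The call of UBL4A was lost in 8 of 21 alternatives (adjusted p from 0.021 to 0.312), among them leaving out the first (0.0863) or second (0.0746) replicate of day 0 or the first (0.0998) or the third (0.132) of day 21. That of URM1 was lost in 15 of 21 (adjusted p from 0.00587 to 0.209), among them leaving out any 1 array (0.0608 to 0.155) but the first replicate of day 0 or of day 21. UBD, an interferon-inducible modifier also called FAT10, rose as well, from 65.3, 74 and 77.7 at day 0 to 802, 285 and 489.6 at day 21 without overlap (adjusted p = 0.00139). All of its day 0 signals lay under the limit for dim probe sets (90.3), so UBD passed the filter through its later, brighter arrays. The size of its rise rests on that dim baseline. Among 28 tested ligases, RNF130 rose by 0.94 ± 0.17, RNF14, a ligase that binds the androgen receptor, by 0.63 ± 0.16, and WWP1, a HECT ligase, by 1.54 ± 0.33 (adjusted p = 0.00423, 0.0224 and 0.010). CDC23, a subunit of the anaphase-promoting complex, fell from 608, 612 and 453 to 256, 269.5 and 220.1, a change of -1.16 ± 0.23 (adjusted p = 0.00689), and no array of day 21 reached the day 0 range. The call of RNF14 was lost without the first replicate of day 0 (adjusted p = 0.0594), without the first (0.0809) or the third (0.0789) of day 21 and in 2 other alternatives (range 0.0132 to 0.321). At day 21, RNF130, WWP1 and CDC23 passed in all 21 alternatives, with adjusted p from 0.0034 to 0.0376, 0.00617 to 0.048 and 0.00178 to 0.0344.

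None of 16 other removal enzymes passed, and OTUB1, which also blocks E2s directly, came closest, with -0.65 ± 0.21 (adjusted p = 0.0646). Among the 4 tested ubiquitin receptors and segregase genes, VCP, the segregase that pulls ubiquitinated proteins out of complexes and membranes, fell. It read 5673, 6821 and 3521 at day 0 and 3152, 3030 and 2845 at day 21, a change of -0.78 ± 0.20 (adjusted p = 0.0244). Its cofactor NSFL1C fell too, from 2948, 1923 and 1203 to 944, 982 and 1062, a change of -0.93 ± 0.25 (adjusted p = 0.0296). In both genes every array of day 21 lay below every array of day 0, and the call was lost in 6 of 21 alternatives, with adjusted p from 0.000812 to 0.122 for VCP and from 0.00173 to 0.0909 for NSFL1C. The call of each gene was lost without the first or second replicate of day 0 or any 1 replicate of day 21, with adjusted p from 0.0549 to 0.0909 over both genes, and with the spike ratio as a covariate.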

How the data were processed

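RNA of pig skeletal muscle was hybridised to 12 Affymetrix arrays, 3 per age. The authors deposited 1 intensity per probe set and array on a linear scale, computed with MAS5 (version not stated) per the submitters' processing notes, and every array has the same trimmed mean, leaving out 2% at each end. Per the labels' protocols, total RNA was extracted with Trizol and labelled with biotin. Symbols came from the platform's probe gene table, in which 10069 probe sets outside the controls have 1 symbol and 198 several; 3 probe sets listed under USP53 and another gene were left out. Of the 61 genes, 57 had an Entrez identifier found in the current gene table, and 0 of these symbols had changed.

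The log2 of each signal was used without renormalizing the arrays. Of 24123 probe sets, 124 controls and then the lowest 40% by mean log2 signal (under a signal of 90.3) were left out, and 14399 were tested in limma 3.58.1 (R 4.3.3) with lmFit, a mean per age, and eBayes with a variance trend. P-values were adjusted by Benjamini-Hochberg over all of them. Counts over genes use 1 probe set per gene. The fits were tested on simulated data. The members, the pathway and marker lists and the rule for named genes were chosen with earlier results of these data known. The rule names the members with the largest changes past the threshold, the member of each family with the smallest F test p, 31 measured genes of a list of 56, and up to 4 genes per pathway group in order of p. Other members are named so that every member is accounted for, and FBXL5 was named after its values were seen. The alternatives were no filter, a filter of 60%, quantile normalization, scaling on 27 hybridization control probe sets, an offset of 29.7 before the logarithm, no variance trend, the replicate number as a block, the 3' to 5' ratio of the poly-A spikes as a term in the fit, the mean of a gene's tested probe sets, and leaving out each array. The replicate numbers do not pair the arrays: over 18 pairs of arrays with the same number at different ages, deviations from the age means correlated between -0.2 and 0.11. Figures were drawn with matplotlib 3.10.9. The sequences of the genes and probes were not used here.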

Additional observations from a re-analysis of the deposited data

How the results depend on the processing

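The count of genes called by the F test (3) was 9 when arrays were scaled on the hybridization controls, 0 with the ratio of the poly-A spikes in the fit, and 0 to 5 when single arrays were left out. The count for day 21 against day 0 (4) was 13 on the hybridization control scale and 3 to 7 when single arrays were left out. The count for day 7 against day 0 (3) was 5 with the stricter filter, 5 with quantile normalization, 5 on the hybridization control scale, 0 with that ratio in the fit, and 0 to 4 when single arrays were left out. The other comparisons, between later ages and between weeks, gave 0 calls under every alternative run. The share of all genes called under each alternative was not counted. These counts therefore show how the calls depend on the processing and cannot be read as particular to the group. No called value changed its sign under any alternative run, while those of uncalled genes did so 30 times, each counted in 1 alternative, and of the 33 calls of single genes or probe sets that were followed, 24 were lost in at least 1 alternative. Of 29 uncalled values followed, 10 passed in at least 1.

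The replicate numbers gave no sign of pairing the arrays over all probe sets, and with the replicate number as a block the counts were 3 for the F test, 4 for day 21 against day 0 and 3 for day 7 against day 0. Under the block USP5 lost its call at day 21 and USP2 gained one. With 3 arrays per age, changes of the size seen in most of these genes cannot be told from the spread between arrays.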

Other observations

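USP2 had its lowest array of each age in the replicate numbered 1: 1983 at day 0, 1397 at day 7, 1413 at day 14 and 1020.2 at day 21, against 1677 to 3845 on the other 8 arrays. The numbers gave no sign of pairing the arrays over all probe sets, the sources used here do not say what they stand for, and the pattern was noticed after the values were seen.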
